A study of Mus musculus with 12 samples.

Results

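Zfp900 to Zfp999 are mouse genes named in series for zinc finger proteins, and most of them encode tandem C2H2 fingers behind a KRAB domain. The fingers of such proteins bind DNA, and the KRAB domain recruits TRIM28 (KAP1), which brings the histone methyltransferase SETDB1 and HP1 proteins and so silences the bound site. KRAB zinc finger genes have expanded in rodents by local duplication, lie in clusters of close copies, and many repress retrotransposons in the germline and early embryo. All autosomal protein-coding genes of GENCODE M21 (mm10) with a symbol from Zfp900 to Zfp999 were taken, which gave 63 genes of 20807 autosomal protein-coding genes. Of the 63 encoded proteins, 59 matched a KRAB pattern and 59 held 3 or more C2H2 fingers, with a median of 11 fingers (range 0 to 21) and a median length of 486 residues (range 139 to 794).

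Nascent RNA had been measured by leChRO-seq, a run-on assay that sequences the RNA still held by engaged RNA polymerase, in 12 libraries from spermatocytes of WT adult mice. The study used the C57Bl/6J and DBA/2J backgrounds, and which of them gave these libraries was not stated. The cells had been enriched by STAPUT, which separates cells by size and density and leaves some cells of other stages, into leptonema/zygonema (n = 4 libraries), pachynema (n = 4) and diplonema (n = 4). The authors called transcriptional regulatory elements (TREs) with dREG, by the names of the deposited lists on the 4 merged libraries of each substage. Each substage is thus described by 1 list of peaks and no spread between replicates can be given. The lists held 71107, 68352 and 38603 peaks in leptonema/zygonema, pachynema and diplonema. Read counts and library depths were not in the files analysed here, and a gene without a peak is not a gene shown to lack initiation.

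The fractions were checked with lists of marker genes. Early meiotic genes (Stra8, Dmc1, Sycp3, Meiob, Rad51ap2) had a peak under 1000 bp from a transcription start site (TSS) in 5 of 5 cases in both earlier lists and in 4 of 5 in the diplonema list, where Stra8 had none. The 5 pachynema markers and the 3 markers of diplonema and later were called in all 3 lists, so presence of a peak did not separate the substages. The spermatid genes Prm1, Tnp1, Acrv1 and Spaca1 were also called in each list, as were 2 of 3 matched Sertoli genes. Sox9 scored 0.385, 0.652 and 0.564 in leptonema/zygonema, pachynema and diplonema and Clu 0.672, 0.648 and 0.639, while Amh had no peak. None of the 4 Leydig, 2 macrophage or 2 blood markers had a peak in any list. What part other cell types have in the peaks below was not tested.

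The members lay on 12 chromosomes. Clusters were runs of 3 or more members whose neighbouring gene starts were at most 1 Mb apart, and 5 such runs held 43 of the 63 genes. The largest, on chromosome 4, held 16 members between chr4:145510759-147848366. The next held 10 members each, at chr2:175372436-178078476 and chr17:21567008-22867134, followed by 4 members at chr7:42592547-43114229 and 3 at chr8:69209038-69749970. Between them these spans held another 52 autosomal protein-coding genes, of which 28 lay in the chromosome 2 span.

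The sequences at the gene starts show how alike some of these genes are. The promoters below run from 250 bases before to 50 bases after the annotated gene start and are written 5′ to 3′ on the strand of the gene, from GRCm38.p6 (mm10). Capitals mark the letters CCAAT or their complement ATTGG, the core of the NF-Y site. Zfp933 (chr4:147848317-147848616, minus strand) and Zfp948 (chr17:21566758-21567057, plus strand) had the highest score in any list of the chromosome 4 and chromosome 17 clusters, both in pachynema, and neither window holds the letters. The chromosome 2 cluster had no called member from which to choose.
Zfp933: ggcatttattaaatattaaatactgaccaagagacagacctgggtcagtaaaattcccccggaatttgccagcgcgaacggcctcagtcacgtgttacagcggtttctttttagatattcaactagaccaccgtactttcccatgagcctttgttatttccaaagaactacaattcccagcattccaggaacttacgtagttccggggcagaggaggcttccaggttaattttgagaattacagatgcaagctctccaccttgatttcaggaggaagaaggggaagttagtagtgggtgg
Zfp948: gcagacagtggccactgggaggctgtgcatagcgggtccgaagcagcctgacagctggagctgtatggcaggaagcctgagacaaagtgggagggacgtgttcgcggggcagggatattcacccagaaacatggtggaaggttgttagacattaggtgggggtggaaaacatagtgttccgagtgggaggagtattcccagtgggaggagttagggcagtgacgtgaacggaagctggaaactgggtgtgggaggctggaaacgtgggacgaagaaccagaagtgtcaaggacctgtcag

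Zfp981 (chr4:146501777-146502076, plus strand) and Zfp989 (chr4:146971726-146972025, plus strand) had the most alike promoters of any pair of members that differed in calls, with 85.7% identity. Zfp981 had a peak in leptonema/zygonema, a call lost under several alternatives given below, and Zfp989 had none in any list.
Zfp981: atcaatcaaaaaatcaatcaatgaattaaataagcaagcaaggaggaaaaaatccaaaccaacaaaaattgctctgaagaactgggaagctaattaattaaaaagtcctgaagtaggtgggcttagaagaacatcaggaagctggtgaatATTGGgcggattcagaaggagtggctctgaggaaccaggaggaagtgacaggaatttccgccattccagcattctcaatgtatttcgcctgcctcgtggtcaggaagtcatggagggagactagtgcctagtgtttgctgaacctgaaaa
Zfp989: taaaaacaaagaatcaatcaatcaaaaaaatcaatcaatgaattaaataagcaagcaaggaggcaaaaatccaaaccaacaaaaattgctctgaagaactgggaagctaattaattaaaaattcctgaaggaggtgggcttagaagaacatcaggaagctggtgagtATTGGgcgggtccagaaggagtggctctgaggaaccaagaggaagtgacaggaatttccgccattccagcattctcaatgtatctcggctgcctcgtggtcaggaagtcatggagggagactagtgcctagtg

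The most alike promoters within the chromosome 2 and chromosome 4 clusters were identical, a choice made after the values were seen. Zfp965 (chr2:175469735-175470034, plus strand) and Zfp973 (chr2:176670272-176670571, plus strand) shared the first sequence, and their proteins were also identical. The promoters of Zfp967 and Zfp969 on chromosome 2 formed another identical pair. Zfp978 (chr4:147361053-147361352, plus strand) and Zfp979 (chr4:147642464-147642763, minus strand) shared the second, with proteins 73.2% identical. None of the 4 genes had a peak.
Zfp965 and Zfp973: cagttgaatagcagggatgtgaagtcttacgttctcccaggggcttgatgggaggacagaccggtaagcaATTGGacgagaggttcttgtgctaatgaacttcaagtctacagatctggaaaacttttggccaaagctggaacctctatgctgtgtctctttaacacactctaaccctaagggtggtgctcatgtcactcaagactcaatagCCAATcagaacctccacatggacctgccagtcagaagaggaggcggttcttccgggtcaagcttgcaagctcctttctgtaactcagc
Zfp978 and Zfp979: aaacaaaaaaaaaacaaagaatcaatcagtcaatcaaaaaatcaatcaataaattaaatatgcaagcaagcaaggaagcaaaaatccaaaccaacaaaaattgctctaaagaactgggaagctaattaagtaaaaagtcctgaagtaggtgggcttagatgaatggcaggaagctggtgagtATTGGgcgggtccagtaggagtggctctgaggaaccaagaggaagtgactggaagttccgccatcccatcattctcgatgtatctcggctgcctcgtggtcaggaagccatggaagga

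To ask how often initiation was called at these genes, a member counted as called in a list when the nearest edge of a peak lay under 1000 bp from the TSS of any of its annotated transcripts. In leptonema/zygonema 31 of the 63 members had a peak, a share of 49.2% (Wilson 95% interval 37.3% to 61.2%), against 60.7% of all autosomal protein-coding genes. In pachynema the count was again 31 (49.2%), against 61.2% of all genes. In diplonema it was 26 (41.3%, interval 30.0% to 53.6%), against 52.3% of all genes. The share of all genes lay inside the members' interval in each list, so the members' shares in single lists were not set apart from it. These intervals cover counting error over genes alone, and genes of a cluster share their ancestry and are not independent.

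The older-numbered zinc finger genes gave other shares. Among the 295 autosomal genes Zfp1 to Zfp899, 250 had a peak in leptonema/zygonema and 250 in pachynema (84.7% each), and 218 (73.9%) in diplonema. Among 190 other genes with a KRAB pattern and at least 3 fingers, 109 of which are also in the first group, 123 (64.7%), 128 (67.4%) and 97 (51.1%) were called. The intervals of Zfp1 to Zfp899, 80.2% to 88.4% in pachynema, lay wholly above those of Zfp900 to Zfp999, whereas the intervals of the other KRAB genes, 60.4% to 73.6% in pachynema, overlapped them.

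**Figure D1:**
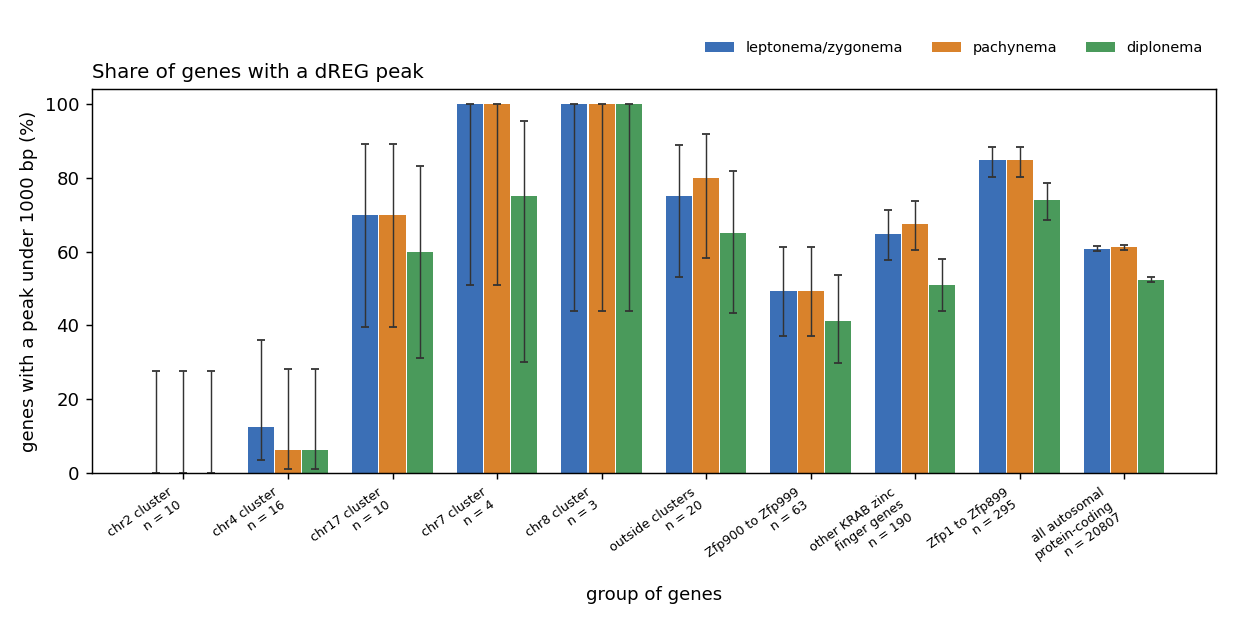
Share of genes with a dREG peak under 1000 bp from a TSS (y axis, %) in each group of genes (x axis, with the number of genes), for leptonema/zygonema, pachynema and diplonema; bars start at 0 and error bars are Wilson 95% intervals for counting error. The chromosome 2 and chromosome 4 clusters lie between 0% and 12.5%, and members outside clusters lie between 65% and 80%.

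Calls were nearly the same set of genes in each substage. Of the 63 members, 26 had a peak in all 3 lists (41.3%, Wilson 95% interval 30.0% to 53.6%), where the share among all genes was 50.2%. A further 31 had a peak in no list (49.2%, interval 37.3% to 61.2%), where the share among all genes, 35.2%, lay below the interval. Among the other KRAB genes 48.9% had a peak in all lists and 30% in none. The remaining 6 changed between lists. Zfp994, Zfp952, Zfp936 and Zfp941 had a peak in leptonema/zygonema and pachynema and not in diplonema, a pattern of 7.45% of all genes. Zfp981 was called in leptonema/zygonema alone, as were 2.84% of all genes, and Zfp932 in pachynema alone, as were 2.12%.

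The peaks were also mostly at the same places. Among the 30 members called in both leptonema/zygonema and pachynema, the best peaks overlapped in 27. They overlapped in 24 of 26 members between pachynema and diplonema and in 23 of 26 between leptonema/zygonema and diplonema. The shares were 90%, 92.3% and 88.5%, close to the 89.1%, 88.7% and 85.7% of all genes called in both lists. The annotated start itself lay inside a peak in 27 of 31 called members in leptonema/zygonema, 29 of 31 in pachynema and 22 of 26 in diplonema. These shares of 87.1%, 93.5% and 84.6% stand beside 93.8%, 93.9% and 92.9% of all called genes.

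Each peak carries a dREG score, a confidence value of the peak caller that has no unit and is compared here within a list, and for the 6 genes that changed between lists it ran from 0.296 to 0.930. Zfp941, on chromosome 7, scored 0.414 in leptonema/zygonema and 0.930 in pachynema. Zfp936 scored 0.798 and 0.833 in these lists, and Zfp994 scored 0.734 and 0.775. Zfp952 scored 0.584 and 0.413, and each of these 4 genes lacked a peak in diplonema. The best peaks of Zfp936 lay at the start of an inner transcript, 63022 bp or more from the 5′ end of the gene, at which uniqueness and promoter were taken. With the 5′ end alone Zfp936 lost its leptonema/zygonema call and kept that in pachynema. Zfp932, which encodes a repressor of endogenous retroviral elements, had 1 peak in pachynema, with a score of 0.320, near the bottom of that list and also under 1000 bp from a start of 1010001B22Rik. Zfp981 had 1 peak, with a score of 0.296, which lay 814 bp inside the gene from its nearest start. This call was lost with a score of at least 0.5, a deposited p-value of at most 0.01 or lists cut to equal length. It was also lost under 500 bp, with the start inside the peak and with distance from the peak centre. The Zfp932 call was lost with the same score, p-value and list length, and with peaks near no other gene.

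The diplonema list was also the shortest of the 3. When each list was cut to its 38603 highest-scoring peaks, the members called were 27, 29 and 26 in leptonema/zygonema, pachynema and diplonema, and the shares of all genes were 53.4%, 53.8% and 52.3%. The difference between diplonema and the earlier substages was then 1 to 3 members.

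The clusters differed sharply from one another. On chromosome 2, none of the 10 members was called in any substage (0 of 10, Wilson interval up to 27.8%). Among all genes 35.2% had a peak in no list. The 10 members are Zfp968, Zfp965, Zfp969, Zfp966, Zfp967, Zfp973, Zfp970, Zfp972, Zfp971 and Zfp931, in order along the chromosome. Their median distance to the nearest peak was 331 kb in leptonema/zygonema, 447 kb in pachynema and 550 kb in diplonema, and the closest approach was 9.54 kb. The whole span of 2.71 Mb held 3, 2 and 2 peaks in the 3 lists, or 1.11, 0.739 and 0.739 peaks per Mb, where the autosomes held 28.0, 26.9 and 15.2. The other 28 protein-coding genes of the span, 21 of them with 3 or more fingers, were not called either.

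On chromosome 4, 14 of 16 members (87.5%) were called in no list, against 35.2% of all genes. The shares called had Wilson intervals of 3.50% to 36.0% in leptonema/zygonema and 1.11% to 28.3% in each of the other lists. The other 6 protein-coding genes of the span had no peak in any list. The 14 uncalled members were Zfp990, Zfp980, Zfp986, Zfp987, Zfp992, Zfp993, Zfp989, Zfp991, Zfp988, Zfp978, Zfp982, Zfp985, Zfp979 and Zfp984. The exceptions were Zfp981, with its weak peak, and Zfp933, the last gene of the cluster, which scored 0.854 and 0.956 in the earlier lists and 0.836 in diplonema. The span as a whole was not poor in peaks, with 64, 49 and 34 peaks in the 3 lists or 27.4, 21.0 and 14.5 per Mb, close to the autosomal values. Of these peaks 5 of 64 in leptonema/zygonema, 1 of 49 in pachynema and 2 of 34 in diplonema lay under 1000 bp from a protein-coding TSS, where the share of all autosomal peaks was 42.4%, 45% and 55.9%. In the chromosome 17 span the counts were 17 of 43, 20 of 49 and 13 of 28, in the chromosome 8 span 13 of 27, 10 of 22 and 8 of 14, and in the chromosome 7 span 3 of 13, 7 of 18 and 3 of 5. Spans end at the starts of their outer members, and peaks wholly beyond these were left out. On chromosome 4 this concerned Zfp933, which had 5, 3 and 2 peaks under 1000 bp, of which 4, 1 and 2 were counted. The median distance from an uncalled chromosome 4 member to the nearest peak was 29.2 kb in leptonema/zygonema and 29.3 kb in each of the other lists.

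In the chromosome 17 cluster 70%, 70% and 60% of the 10 members were called in the 3 lists, against 60.7%, 61.2% and 52.3% of all genes. The Wilson intervals, 39.7% to 89.2% in the earlier lists and 31.3% to 83.2% in diplonema, contained the shares of all genes. Zfp948, Zfp942, Zfp943, Zfp944, Zfp946 and Zfp945 had a peak in all 3 lists, Zfp994 in leptonema/zygonema and pachynema, and Zfp983, Zfp995 and Zfp947 in none. Zfp948 was the highest of them in pachynema, with scores of 1.005, 1.218 and 0.719 in leptonema/zygonema, pachynema and diplonema. Zfp942 and Zfp943 are transcribed in opposite directions from starts 88 bp apart, and both took their values of 1.016, 0.856 and 0.737 from the same peaks. Zfp944 scored 0.666, 0.632 and 0.689 from peaks that were also near Zfp758. Zfp995 and Zfp947 are close copies, with promoters 87.3% and proteins 90.4% identical, and the pair was uncalled in each list.

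The 2 small clusters were called throughout, apart from Zfp936 in diplonema. The shares of all genes were 60.7%, 61.2% and 52.3%, and the Wilson intervals of both clusters contained them in each list. The shares of these few members were thus not set apart from those of all genes. None of the 5 other protein-coding genes of the chromosome 7 span had a peak in any list. In the chromosome 8 span 4, 4 and 2 of the 5 others were called. On chromosome 8, Zfp930 scored 1.064, 1.236 and 0.504, Zfp964 scored 1.056, 1.152 and 0.765, and Zfp963 scored 1.063, 1.032 and 0.950. On chromosome 7, Zfp977 scored 0.656, 0.827 and 0.517, Zfp976 scored 0.717, 0.778 and 0.562, and Zfp975 scored 0.513, 0.872 and 0.696. The values of the chromosome 7 genes lay below those of the chromosome 8 genes in leptonema/zygonema and pachynema without overlap. Zfp977 and Zfp976 had promoters 89.3% identical, so close copies were not always uncalled.

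Of the 20 members outside clusters, 15, 16 and 13 were called in the 3 lists (75%, 80% and 65%), and 13 in all of them. The shares of all genes were 60.7%, 61.2% and 52.3%, and 50.2% in all lists. Those of the single lists lay inside the members' Wilson intervals of 53.1% to 88.8%, 58.4% to 91.9% and 43.3% to 81.9%. Zfp937 on chromosome 2, Zfp935 and Zfp934 on chromosome 13 and Zfp957 on chromosome 14 had no peak. Taken by chromosome, 24 of the 31 uncalled members lay in the chromosome 2 and chromosome 4 clusters, where 92.3% of the 26 members were uncalled, against 7 of the other 37 (18.9%). Those 37 members had a peak in 29, 30 and 25 cases, or 78.4%, 81.1% and 67.6%. These 37 were set apart after the calls of the 2 clusters were seen, so nothing is read from their shares beside those of all genes.

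**Figure D2:**
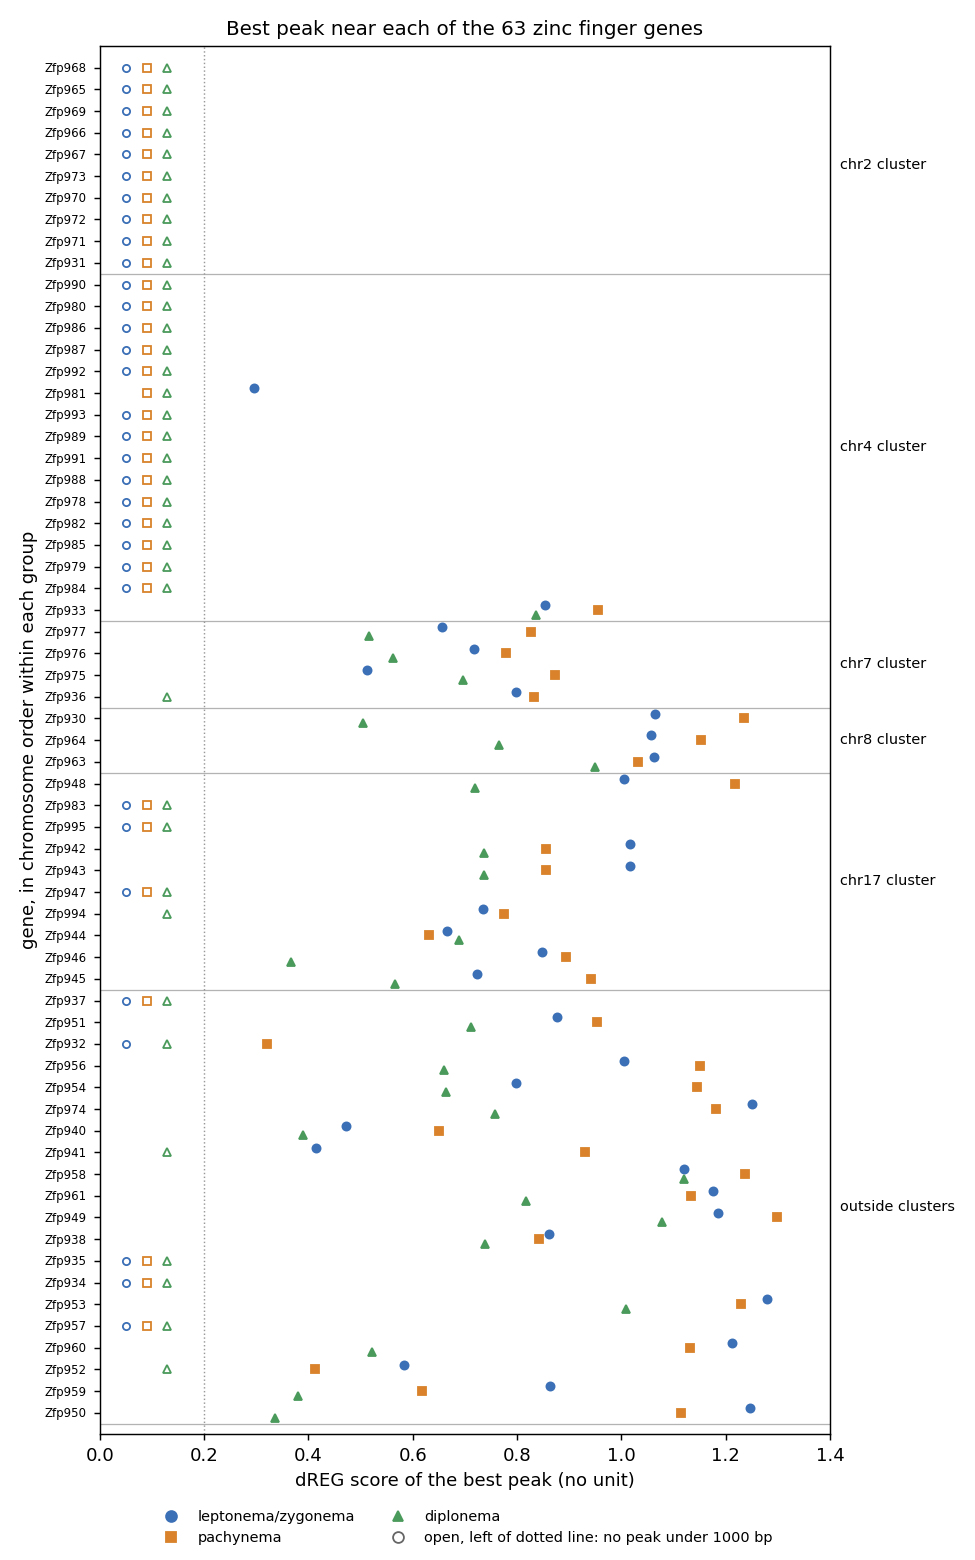
dREG score of the best peak under 1000 bp from a TSS (x axis, no unit) for each of the 63 genes (y axis), grouped by cluster and ordered by position, with filled circles for leptonema/zygonema, squares for pachynema and triangles for diplonema; open symbols at the left mark genes with no peak. The 10 chromosome 2 genes and 14 of the 16 chromosome 4 genes carry open symbols alone, and the filled symbols run from 0.296 to 1.298.

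Where members were called, their median score lay below that of all called genes in each list. The median best score was 0.864, 0.941 and 0.704 in the leptonema/zygonema, pachynema and diplonema lists, against 1.051, 1.034 and 0.839 over all called genes and 1.01, 0.998 and 0.761 over Zfp1 to Zfp899. Over the other KRAB genes it was 0.970, 0.929 and 0.704, which the members exceeded in pachynema and equalled in diplonema. The 95% order-statistic intervals of the members' medians, 0.734 to 1.056 in leptonema/zygonema and 0.843 to 1.134 in pachynema, contained the medians of all called genes, and that in diplonema, 0.562 to 0.757, did not. As a percentile among all called autosomal protein-coding genes of the same list, the median member stood at 31.4, 40.6 and 35.4. Members outside clusters stood at 44.4 in leptonema/zygonema and 63.1 in pachynema, higher than members in clusters, at 28.5 and 34.5. In diplonema the corresponding values were 36.3 and 34.5.

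The highest members were in part the same in each list. In leptonema/zygonema the top 5 scores were those of Zfp953 (1.280), Zfp974 (1.250), Zfp950 (1.246), Zfp960 (1.212) and Zfp949 (1.185). In pachynema they were those of Zfp949 (1.298), Zfp958 (1.238), Zfp930 (1.236), Zfp953 (1.229) and Zfp948 (1.218). In diplonema they were those of Zfp958 (1.121), Zfp949 (1.078), Zfp953 (1.009), Zfp963 (0.950) and Zfp933 (0.836). Zfp949 and Zfp953 were in the top 5 of each list, and none of the top genes but Zfp933 came from the chromosome 2 or chromosome 4 cluster. The best peak of Zfp953 was also near the starts of Gm17039 and Gm28044.

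Ranks of the 26 members called in each list were compared between substages, since scores are not scaled between lists. From leptonema/zygonema to pachynema the percentile was higher in 16 and lower in 10, with a median change of 7.66 points, where 54.0% of the 10439 genes called in all 3 lists rose and their median change was 1.23 points. From pachynema to diplonema it was higher in 7 and lower in 19, with a median change of -11.5 points against -4.62 points over all such genes, of which 39.5% were higher. From leptonema/zygonema to diplonema it was higher in 12 and lower in 14, with a median change of -3.63 points against -3.23. The order-statistic intervals of these members' medians were -5.32 to 18.5, -29.8 to -0.0521 and -16.4 to 4.66 points, in the same order. Each contained the median change over all such genes, so the members' changes were not set apart from it. The first and the last interval also contained no change. The shifts depended on the genes ranked. With lists of equal length, which left 24 members called in all 3, the median change was 6.96 points from leptonema/zygonema to pachynema against 1.11 over all genes, and -8.88 points from pachynema to diplonema against -0.0438. When the 26 members were ranked among the genes called in every list, the median change was 4.21 points from leptonema/zygonema to pachynema and -4.74 points from pachynema to diplonema, with 10 higher and 16 lower, against 0.0527 and 1.10 points over all such genes. From leptonema/zygonema to diplonema the sign turned, to 1.85 points against 1.12. These rankings were added after the values were seen, and with 1 list per substage the shifts have no replicate error to be set against.

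Single genes differed between lists by more than the medians, and the genes named here kept the order of their 3 values when ranked among the genes called in every list. With lists of equal length the lower values of Zfp948 changed places. Zfp950, on chromosome 19, stood at percentile 83.0 in leptonema/zygonema and 61.7 in pachynema, and at 4.21 in diplonema, where its score was 0.336. Zfp960 went from 76.9 and 64.5 to 19.5. Zfp930 was at 51.8, 84.0 and 17.9. Zfp948 (44.4, 80.4, 37.0), Zfp954 (26.8, 66.8, 31.4) and Zfp956 (44.4, 67.6, 31.2) also had their highest percentile in pachynema. Zfp958 and Zfp933 went the other way, with percentiles of 60.3, 84.4 and 86.3 for the first and 30.7, 42.0 and 49.7 for the second. The best peak of Zfp954 in each list was also under 1000 bp from a start of Gm44697.

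The choice of 1000 bp decided few calls. In leptonema/zygonema the called member farthest from its peak was Zfp981, at 814 bp, and the closest uncalled member was Zfp982, at 1460 bp. In pachynema these were Zfp941 at 202 bp and Zfp993 at 6541 bp. In diplonema they were Zfp959 at 673 bp, with a score of 0.380, and Zfp991 at 6718 bp.

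Reads from near-identical copies cannot be assigned to one of them, so the uniqueness of each gene start was measured as the share of 32-base stretches (32-mers) within 500 bp of the 5′ end of the gene that occur once in the genome, on either strand. The median over the 63 members was 47.1%, against 100% over all autosomal protein-coding genes, and 34 members lay under 50%, as did 1176 of the 20807 genes. In the chromosome 2 cluster the median was 0%, 6 of 10 starts had no unique 32-mer at all, and the median 32-mer occurred 11.5 times. In the chromosome 4 cluster the median was 29.6% and the median occurrence 3.5. The chromosome 17, 7 and 8 clusters had medians of 53.7%, 65.3% and 99.7%, and members outside clusters had 94.7%.

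Called and uncalled members differed in this measure. The 32 members with a peak in some list had a median of 95.3% (range 30.3% to 100%), and the 31 with none had 16.5% (range 0% to 88.4%). None of the 19 members under 25% was called, 7 of the 15 between 25% and 50% were called in leptonema/zygonema and in pachynema, and all 16 members at 95% or above were called in both. Over all autosomal protein-coding genes the pachynema share over the same 5 classes was 10.7%, 29.1%, 28.4%, 51.7% and 67.7%. In the highest class it was 89.0% for Zfp1 to Zfp899 and 91.5% for the other KRAB genes. In the lowest class 0 of 5 Zfp1 to Zfp899 genes and 2 of 32 other KRAB genes (6.25%) had a pachynema peak. Sequencing depth was stated by the study in uniquely mapped reads, and no rule for reads with several mapping places was found in its leChRO-seq methods. A lack of initiation and a lack of placed reads cannot be told apart at these genes.

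**Figure D3:**
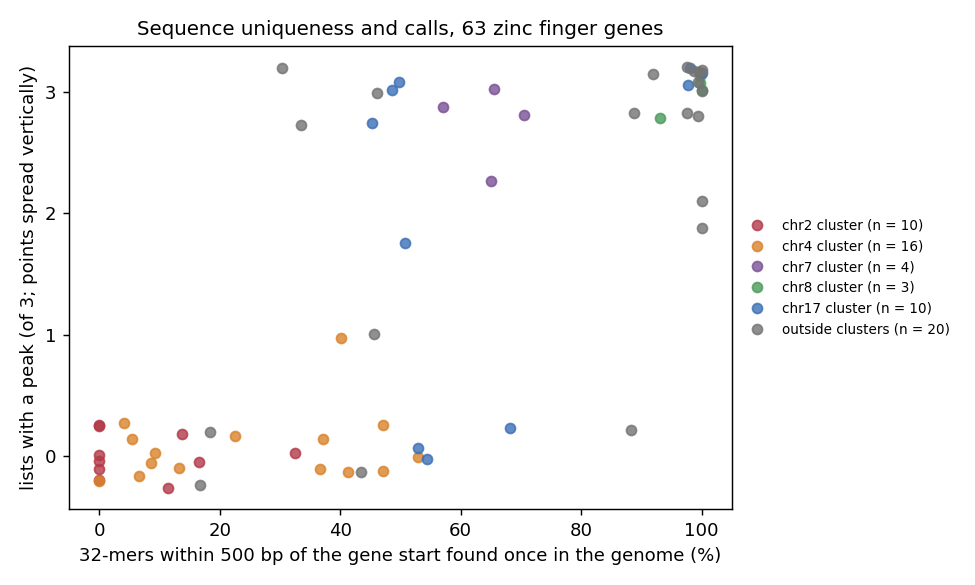
Share of 32-mers within 500 bp of the gene start found once in the genome (x axis, %) against the number of peak lists, of 3, in which the gene was called (y axis; points are spread vertically so that they can be seen), with 1 point per gene coloured by cluster. All 19 genes under 25% are at 0 lists, and genes between 25% and 75% occur at each level.

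Among the 29 members with at least 50% unique 32-mers, 24, 24 and 20 were called in the 3 lists (82.8%, 82.8% and 69.0%), 20 in all of them and 5 in none. Under the same limit the shares were 63.2%, 63.8% and 54.8% over all genes, 82.4%, 84.5% and 65.5% over the other KRAB genes and 87.0%, 87.0% and 76.1% over Zfp1 to Zfp899. The 5 were Zfp985 on chromosome 4 (52.9% unique), Zfp983 (52.9%), Zfp995 (68.1%) and Zfp947 (54.4%) on chromosome 17 and Zfp957 on chromosome 14 (88.4%). Zfp957 differs from most members also in its protein, in which neither a KRAB pattern nor a C2H2 finger of the searched spacing was found. Among the 34 members under 50%, the shares called in the 3 lists were 20.6%, 20.6% and 17.6%. Over all genes they were 14.3%, 10.7% and 6.26% under 25% unique, and 28.1%, 29.1% and 22.5% between 25% and 50%. Of the 34 members, 26 were uncalled and 6 were called in each list, namely Zfp951, Zfp960, Zfp942, Zfp943, Zfp944 and Zfp959. Zfp951 had the least unique start of these, at 30.3%, and scored 0.877, 0.953 and 0.712.

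**Figure D4:**
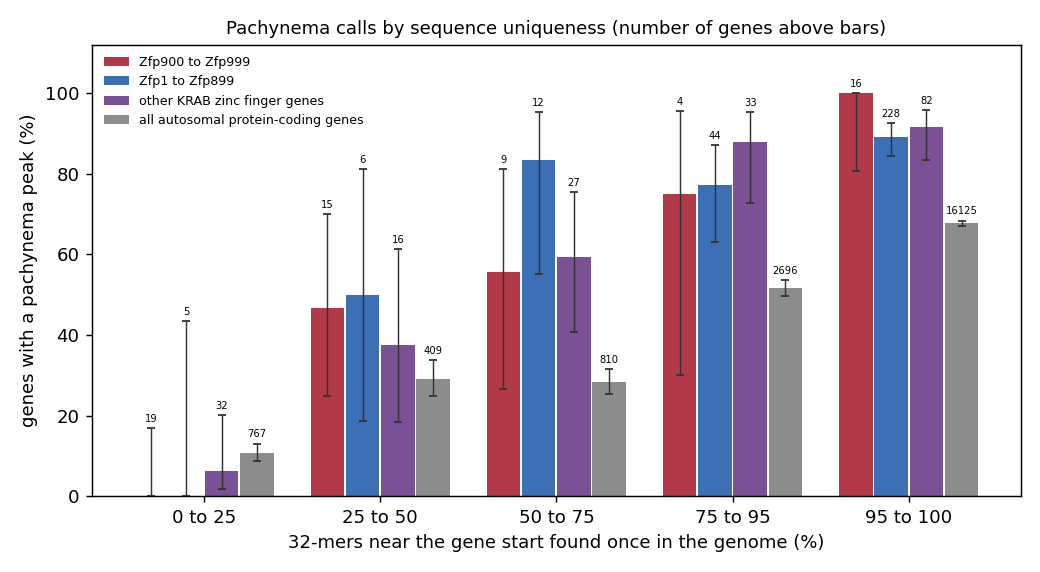
Share of genes with a pachynema peak (y axis, %) by the share of unique 32-mers near the gene start (x axis, 5 classes), for the 63 members, Zfp1 to Zfp899, other KRAB zinc finger genes and all autosomal protein-coding genes; bars start at 0, error bars are Wilson 95% intervals and the number of genes stands above each bar. The members go from 0 of 19 in the lowest class to 16 of 16 in the highest.

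The peaks called in the chromosome 4 span were also measured, each over its own length. The leptonema/zygonema peaks of this span had a median uniqueness of 30.3%, and 47 of the 64 lay under 50%. These values are over peaks and are not the same measure as the windows at gene starts, and what they bear on was not tested. In pachynema 31 of 49 peaks and in diplonema 20 of 34 lay under 50%. In the chromosome 2 span, where 6.76% of all 32-mers were unique against 21.1% in the chromosome 4 span, each peak lay 1000 bp or more from any annotated start.

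Likeness between members was also highest in the chromosome 2 and chromosome 4 clusters. Each promoter was compared with its most alike partner among the members, and 10 of 63 were at least 90% identical to another, 8 in the chromosome 2 cluster and 2 in the chromosome 4 cluster. The median identity to the best partner was 98.2% on chromosome 2, 85.7% on chromosome 4, 83.5% on chromosome 7, 59% on chromosome 17, 51% on chromosome 8 and 53% outside clusters. In the chromosome 2 cluster, 6 of the 10 encoded proteins were identical to another member's, and these were Zfp966, Zfp967, Zfp968 and Zfp969 with 485 residues and Zfp965 and Zfp973 with 318. On chromosome 4 no 2 proteins were identical, the closest being those of Zfp992 and Zfp991 at 99.0%.

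Short letters were counted in the 300-base promoters on either strand, as a description and not as binding sites. CCAAT occurred in 47 of the 63 members (74.6%), against 38.6% of all autosomal protein-coding genes, 39.0% of Zfp1 to Zfp899 and 66.8% of the other KRAB genes. It was there in all 10 chromosome 2 promoters and in 13 of 16 on chromosome 4, where the printed Zfp933 lacks it. By call, it was in 22 of the 32 called and 25 of the 31 uncalled members. The letters CCGGAAG, which hold the core of ETS sites, occurred in 16 members (25.4%), 7 of them on chromosome 2, against 11% of all genes, 21.4% of Zfp1 to Zfp899 and 19.5% of the other KRAB genes. GGGCGG, an SP site, occurred in 34.9% of members against 43.7% of all genes, 41.7% of Zfp1 to Zfp899 and 31.1% of the other KRAB genes, with 12 of 16 on chromosome 4 and 0 of 10 on chromosome 2.

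The promoters had no TATAAA in any of the 63 cases, where 12.7% of all genes, 8.47% of Zfp1 to Zfp899 and 7.89% of the other KRAB genes held it, and no GTTGCCA, the letters of an RFX site, where 4.31% did. TGACGTCA, the CREB palindrome, occurred in 1 member against 2.43% of all genes, and CTCGCGAG in none against 1.22%. The MYB letters CAGTTG occurred in 6 members (9.52% against 12.4%) and GGCAGTT in 2 (3.17% against 4.10%). AAGATGG, a YY1 site, occurred in 2 (3.17% against 6.24%). The members had a median GC share of 48.7% and a median of 7 CpG against 55.3% and 12 over all genes and 50.7% and 9 over the other KRAB genes, and the chromosome 4 promoters had 42.5% and 5.

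The genes of a list of partners in KRAB repression were also looked up. The list held Trim28, Setdb1, Atf7ip (which stabilises SETDB1), the HP1 genes Cbx1, Cbx3 and Cbx5, Morc3, Chd3, Chd4, Hdac1, Smarcad1 and Resf1, and each of the 12 had a peak in all 3 lists, as did 50.2% of all genes. Trim28 scored 0.779, 0.924 and 0.820 in leptonema/zygonema, pachynema and diplonema. Setdb1 scored 0.461, 0.729 and 0.472, and Chd3 was the lowest, at 0.290, 0.499 and 0.380. Chd4, Atf7ip, Cbx1, Cbx3, Cbx5, Morc3 and Hdac1 lay at or above 0.920 in each list.

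Of 7 other KRAB zinc finger genes with a known target, 6 had a peak in each list, as did 48.9% of all the other KRAB genes. Zfp57, which protects imprints, scored 1.255, 1.101 and 0.920, and Zfp445, with a like role, scored 1.171, 0.924 and 0.410. Zfp809, a silencer of proviruses, scored 1.073, 0.929 and 0.826, Zfp568 scored 1.213, 1.278 and 1.065, and Zfp819 scored 1.319, 1.161 and 0.637. Prdm9, which marks recombination hotspots in leptonema and zygonema, scored 1.112, 1.165 and 0.732. Zfp708 had no peak, with a start that was 100% unique. In leptonema/zygonema the 6 called genes lay above the members' median of 0.864. In pachynema Zfp445 and Zfp809 lay below the members' 0.941, and in diplonema Zfp445 and Zfp819 lay below their 0.704.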

How the data were processed

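Peaks of 12 leChRO-seq libraries were analysed as deposited, 1 list for each of 3 substages. Per the paper's methods, PRINSEQ lite took out duplicate reads by their molecular identifiers, cutadapt took off the adapters, and BWA placed the reads on mm10. The authors then made tracks with bedtools and ran dREG with default settings. That the 4 libraries of a substage were merged for dREG is taken from the names of the deposited lists, not from the methods. Tool versions for these leChRO-seq steps are not given in the sources used here. Depth was stated in uniquely mapped reads, and the leChRO-seq methods give no rule for reads with several mapping places. The deposited columns hold a dREG score, the deposited p-value of each peak (up to 0.05, with no word on adjustment) and the peak centre, and none is scaled between substages.

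Distances ran from the nearest peak edge to the TSS of any of the transcripts in GENCODE M21. The best peak was the highest-scoring one under 1000 bp. Members, lists and alternatives were chosen with earlier results of these data known. Named were the 5 highest members per list, those whose calls differed between lists, up to 3 called and 3 uncalled members per cluster with the uncalled named by cluster, those nearest to 1000 bp and the partner genes. Other called members, and the chromosome 4 pseudogenes, were named after their values were seen. Proteins were the longest coding sequence of each gene, translated from the annotation and genome, and searched for a KRAB pattern in the first 150 residues and for fingers. Identity was 100 minus the edit distance as a percentage of the longer sequence. Uniqueness was counted in the C57BL/6J chromosomes and unplaced contigs of GRCm38.p6. Distances, 32-mer counts and intervals were tested on simulated data. With 1 list per substage no test was run, and Wilson 95% intervals cover counting error. Scripts ran under Python 3.11.15 with numba 0.67.0, Biopython 1.88, edlib, numpy 2.4.6, scipy 1.17.1 and pandas 2.3.3.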

Additional observations from a re-analysis of the deposited data

How the results depend on the processing

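The alternatives gave 125 values, and 121 of these were counted as unchanged. To be so counted, a value had to lie within 1.5 times the count or within the 95% order-statistic interval of the median. It also had to have the sign of the main result. Outside these limits lay 2 values, and another 2 changed sign while inside the interval. Gene starts from RefSeq, an alternative chosen after seeing the data and matched by symbol for 53 members, gave 30, 31 and 26 called members. Of these 53 members 22 had a peak in no list, against 31 of the 63 in the main analysis. Restricting to the 29 members with at least 50% unique 32-mers left 5 uncalled in all lists in place of 31. Of the 34 members removed, 26 were uncalled. The uncalled share was 17.2% of the 29 members against 49.2% of the 63. The median percentile change of members from leptonema/zygonema to diplonema turned from -3.63 to 0.487 points with lists of equal length and to 1.85 points when ranked among genes called in every list, both chosen after seeing the data. With equal lists the change from pachynema to diplonema was -8.88 points, against -0.0438 over all genes. With 24-mers the median uniqueness of members was 36.3%. A start inside the peak left 19 members called in all lists, peaks near no other gene 20, and a score of at least 0.5 left 22. No paired analysis was possible because the libraries of a substage were merged before peak calling, and for that reason no replicate could be left out. Without counts, depth sets no limit that can be given.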

Other observations

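In the chromosome 4 span, more peaks lay near starts of pseudogenes between the zinc finger genes (25 of 64 in leptonema/zygonema, 26 of 49 in pachynema and 16 of 34 in diplonema) than near protein-coding starts. Of the 45 processed pseudogenes (copies of spliced RNA inserted in the genome) with their start in this span, 16 had a leptonema/zygonema peak under 1000 bp, 14 a pachynema peak and 11 a diplonema peak, or 35.6%, 31.1% and 24.4% of them. Among all 8924 autosomal processed pseudogenes the shares were 6.42%, 6.98% and 3.62%. In the chromosome 7 span 2 of 7 were called in each list (28.6%), in the chromosome 17 span 0, 2 and 2 of 18, and in the chromosome 2 and chromosome 8 spans none of 4 and none of 5.

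The copies were joined into families at 80% identity or more, and some families were called as a whole, some in part and some not at all. One family of 5 copies of 2950 to 3350 bp, joined by identities of 82.0% to 96.7%, was called in all 5 copies in each list. Gm13136 scored 1.106, 1.112 and 0.898 in leptonema/zygonema, pachynema and diplonema. Gm13135 scored 1.119, 1.034 and 0.941, Gm13140 scored 0.928, 1.085 and 0.947, and Gm13034 scored 0.963, 1.071 and 0.888. Gm13231 was lowest, at 0.885, 0.951 and 0.597. A family of 5 shorter copies (559 to 632 bp) was called in 5, 4 and 4 copies. A family of 4 copies of 1655 to 1684 bp was called in 3, 2 and 2 of them. Families of 7 copies (736 to 780 bp) and of 6 copies (634 to 646 bp) each had 1 called copy in the earlier lists and 0 in diplonema. Families of 7 copies of 315 to 345 bp and of 4 copies of 578 to 635 bp, also at least 85.2% and 90.6% identical where joined, had no peak in any list. Copies of one family share sequence, so a peak at one may hold reads of another, and which copy gave the reads was not tested.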
